A study of Drosophila melanogaster with 24 samples.

Results

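The gene muscleblind (mbl) was represented by 6 probe sets of the 18769 in the value table, namely 1631120_at, 1636099_s_at, 1637945_at, 1639930_at, 1640686_s_at and 1641114_at. Members were all probe sets for which the platform annotation gave mbl as the only gene symbol, and no probe set listed mbl together with another gene. A probe set is a group of short oligonucleotides on the array that together give 1 value, the Signal, for the RNA they hybridize to. The 6 probe sets were compared with each other because probe sets of 1 gene can report different transcripts, and the RefSeq table of the Release 6 assembly lists 19 transcripts for mbl.

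The flies came from artificial selection on locomotor reactivity, the activity of a fly just after a mechanical disturbance. High (H) lines were bred from the most active flies, Low (L) lines from the least active flies, and Control (C) lines without selection, all from 1 outbred base population of crossed isofemale lines from a natural population. There were 3 selection groups of 2 replicate lines. From every line 2 female and 2 male samples were taken, which made 8 arrays per group, 4 of either sex. A sample was a pool of 12 whole virgin flies, 3 to 7 days old, taken at generation 25.

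Muscleblind proteins are RNA-binding zinc-finger proteins that regulate alternative splicing. In Drosophila they are needed for the terminal differentiation of muscles and photoreceptors, and the gene spans a large region and makes many alternative transcripts. The human orthologs, the MBNL proteins, are known for their sequestration by expanded repeats in myotonic dystrophy.

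The study took mbl as a candidate gene because its Signal differed between the selection lines on these same arrays, so that the gene was chosen by measured values. Line means, differences between H, L and C lines and the dependence of the sex difference on line are therefore given as a description, with their errors. No p-value is printed for them. Where an unadjusted p under 0.05 is mentioned for them, nothing is read from it. Where calls on them are counted, the count stands beside the share called among all probe sets and nothing is read from it. The mean difference between the sexes and the ratio of 2 probe sets between the sexes were not used for that choice and were tested. The RefSeq table places 8 further genes within the span of mbl, 4 protein-coding genes and 4 long non-coding RNA genes, and RNA of an overlapping gene and of mbl cannot be told apart where a probe set covers both.

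All 6 probe sets were among the 11439 whose Signal had a median of 75 or more on the 24 arrays, to which limma was fitted. Replicate arrays of 1 line and sex correlated at a median Pearson r of 0.97 in females and 0.98 in males, computed across probe sets. The array medians were 93 to 117.5 in females and 143.2 to 157.7 in males, while the mean after trimming 2% of values at each end was 497 to 499 in both, so that a difference between the sexes depends on the scaling. Sex-limited genes followed the labels. All 7 ovary markers tested were lower in males, all 8 accessory gland markers were higher in males, and of 9 testis markers 7 were higher in males and 1, twe, was lower.

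The probe set 1637945_at had the widest range of the 6 over the lines. Its Signal was 81.0 and 107.9 in the females and 115.2 and 85.9 in the males of High line 1. In High line 2 it was 27.5 and 71.4 in females and 49.6 and 80.6 in males. The 8 High arrays thus ranged from 27.5 to 115.2 with a median of 80.8, and 3 of them were below 75. The 8 Control arrays ranged from 138.0 to 191.4 with a median of 157.2, and the 8 Low arrays from 134.4 to 200.6 with a median of 178.6. No High array overlapped the Control or the Low arrays, whereas Control and Low arrays overlapped over most of their range. The mean Signal was 77.4 ± 28.7 (SD, n = 8) in the H lines, 162 ± 19.7 in the C lines and 173 ± 24.8 in the L lines. On the log2 scale the H lines were lower than the L lines by a difference of -1.26 (SE 0.18), or 2.40-fold, and lower than the C lines by -1.17 (SE 0.18), or 2.25-fold. The C lines differed from the L lines by -0.09 (SE 0.18).

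Both High lines were low, but not equally so. The mean log2 Signal of 1637945_at was 6.59 in High line 1 and 5.73 in High line 2, against 7.34 and 7.32 in the Control lines and 7.39 and 7.45 in the Low lines. Leaving out High line 1 gave a difference of -1.69 between H and L lines, and leaving out High line 2 gave -0.83. The arrays of High line 2 females were the most unequal pair of replicates of this probe set, and without both of them, a choice made after seeing the data, the 6 remaining High arrays had a mean Signal of 86.7 ± 23.3 (SD, n = 6), with 115.2 as the highest. With 50 added to each Signal before the logarithm, the difference of H and L lines was -0.84, since a pseudocount compresses low values. Fewer cells with the transcript and less transcript per cell cannot be told apart in RNA of whole flies, here and for all values below. A lower Signal also need not mean less RNA. For probe sets highest in Control lines, the paper proposes as a possibility that selected alleles differ in sequence under the probes. Such differences were not tested for any mbl probe set.

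**Figure D1:**
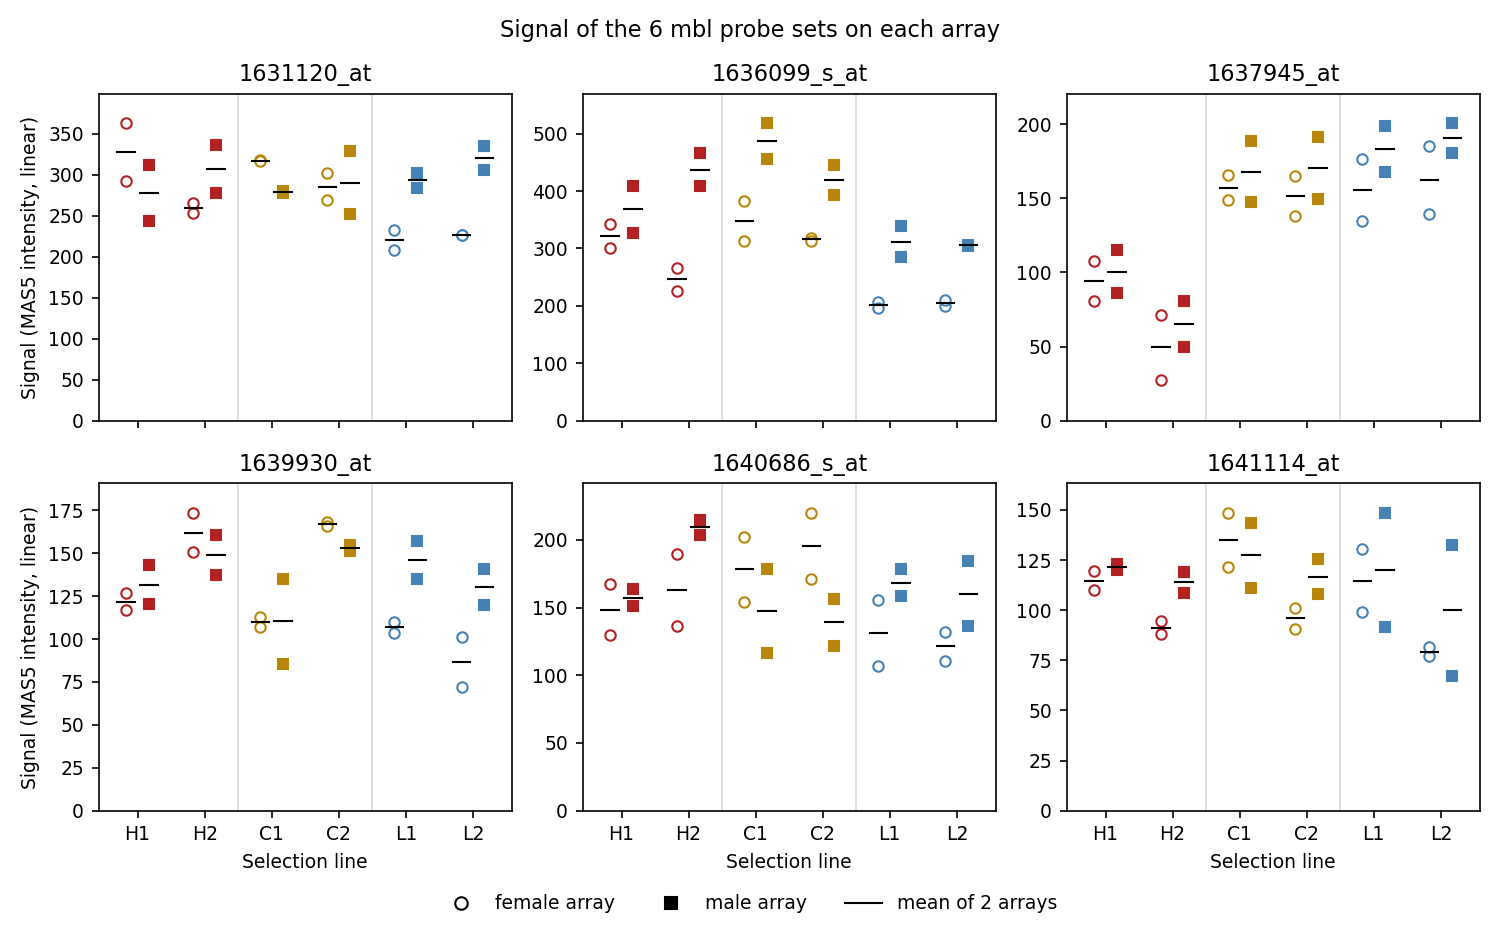
Signal (MAS5 intensity, linear axis from 0) of the 6 mbl probe sets on each of the 24 arrays by selection line (H1, H2, C1, C2, L1, L2), with open circles for females, filled squares for males and a bar for the mean of the 2 arrays of a line and sex. For 1637945_at all 8 High arrays lie at or below 115.2 and all Control and Low arrays at or above 134.4, while for 1636099_s_at the Low females lie lowest, between 196.4 and 209.5.

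The probe set 1636099_s_at, whose suffix marks probes shared by several transcripts, ordered the groups differently, with the L lines lowest and the C lines highest. In females its Signal was 206.5 and 196.4 in Low line 1 and 200 and 209.5 in Low line 2. It was 342.6 and 301.3 in females of High line 1, 226.6 and 265.7 in High line 2, 313.1 and 382.8 in Control line 1, and 318.0 and 313.3 in Control line 2. All 4 Low female arrays were below all High and Control female arrays, and High and Control females overlapped. In males it was 284.8 to 339.2 on the 4 Low arrays, 327.7 to 465.4 on the 4 High arrays and 392.3 to 518.0 on the 4 Control arrays. Low and Control males did not overlap, and High males overlapped both.

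Over both sexes the mean Signal of 1636099_s_at was 343 ± 80.4 (SD, n = 8) in the H lines, 392.4 ± 76.4 in the C lines and 256 ± 58.5 in the L lines. These SD hold the difference between the sexes. The log2 difference was 0.42 (SE 0.07) between H and L lines, -0.20 (SE 0.07) between H and C lines and 0.63 (SE 0.07) between C and L lines. Averaged over the sexes, the mean log2 Signal was 7.97 in both Low lines. It was 8.42 and 8.35 in High lines 1 and 2, and 8.68 and 8.51 in Control lines 1 and 2. The High lines were farther apart within each sex. High line 1 was above High line 2 in females, at 8.33 and 7.94, and below it in males, at 8.52 and 8.77. Among females H and L lines differed by 0.47 (SE 0.10), and among males by 0.38 (SE 0.10).

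The other 4 probe sets had differences of H and L lines from 0.14 to 0.29. For 1631120_at the mean Signal was 293 ± 41.6 (SD, n = 8) in H lines, 293 ± 27.3 in C lines and 265 ± 47.1 in L lines. Its Low females stood apart, with 208.7 and 232.5 in Low line 1 and 226.7 and 226.2 in Low line 2, below all High females (252.9 to 362.9) and all Control females (269.0 to 318.5). Its Low males, 284.1 to 335.4, overlapped both High and Control males. Among females H and L lines accordingly differed by 0.38 (SE 0.11), and among males by -0.08 (SE 0.11).

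For 1639930_at the mean Signal was 141 ± 19.9 (SD, n = 8) in H lines, 135 ± 30.3 in C lines and 118 ± 26.8 in L lines. Its Low female arrays, 71.9 to 110.1, were below the 4 High female arrays, 116.7 to 173.4, and overlapped the Control female arrays, 107.0 to 168.5. Among females H and L lines differed by 0.55 (SE 0.14), and among males by 0.02 (SE 0.14). The 2 Control lines of this probe set were far apart, at mean log2 Signals of 6.77 and 7.32, so that C and L lines differed by 0.48 without Control line 1 and by -0.08 without Control line 2.

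For 1640686_s_at, the other probe set shared by several transcripts, the means were 170 ± 31.0 (SD, n = 8) in H lines, 165 ± 35.9 in C lines and 145 ± 28.8 in L lines. All neighbours in the order of its 6 groups of selection and sex overlapped. For 1641114_at they were 110 ± 12.9, 119 ± 20 and 103 ± 29.9, again with overlap of all neighbours. The differences of H and L lines were 0.23 (SE 0.13) and 0.14 (SE 0.14).

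In the contrast of H and L lines, 5 of the 6 probe sets thus had a positive difference, between 0.14 and 0.42, and 1637945_at a negative one. Single lines moved the smaller differences. That of 1641114_at was -0.07 without Low line 2, 0.34 without Low line 1, 0.03 without High line 1 and 0.24 without High line 2, and single arrays moved it between 0.01, without the second male array of Low line 2, and 0.26, without the first. That of 1639930_at was 0.43 without High line 1, 0.14 without High line 2 and 0.17 without Low line 2. That of 1640686_s_at was 0.36 without High line 1 and 0.09 without High line 2. Two-sided limma calls at an adjusted p under 0.05 are given only as a count, because mbl was chosen on these contrasts. H and L lines were called apart for 2 of the 6 probe sets, 1636099_s_at and 1637945_at, where 15.7% of all probe sets tested were called. H and C lines were called apart for 1637945_at alone (11.2% of all), and C and L lines for 1636099_s_at alone (15.5% of all). The line effect over the 6 lines was called at an adjusted p under 0.001 for the same 2 probe sets (4.76% of all). That count was 0 or 1 after leaving out any one of 22 of the 24 arrays, and remained 2 only without 1 or the other array of High line 2 females. Nothing is read from these counts.

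**Figure D2:**
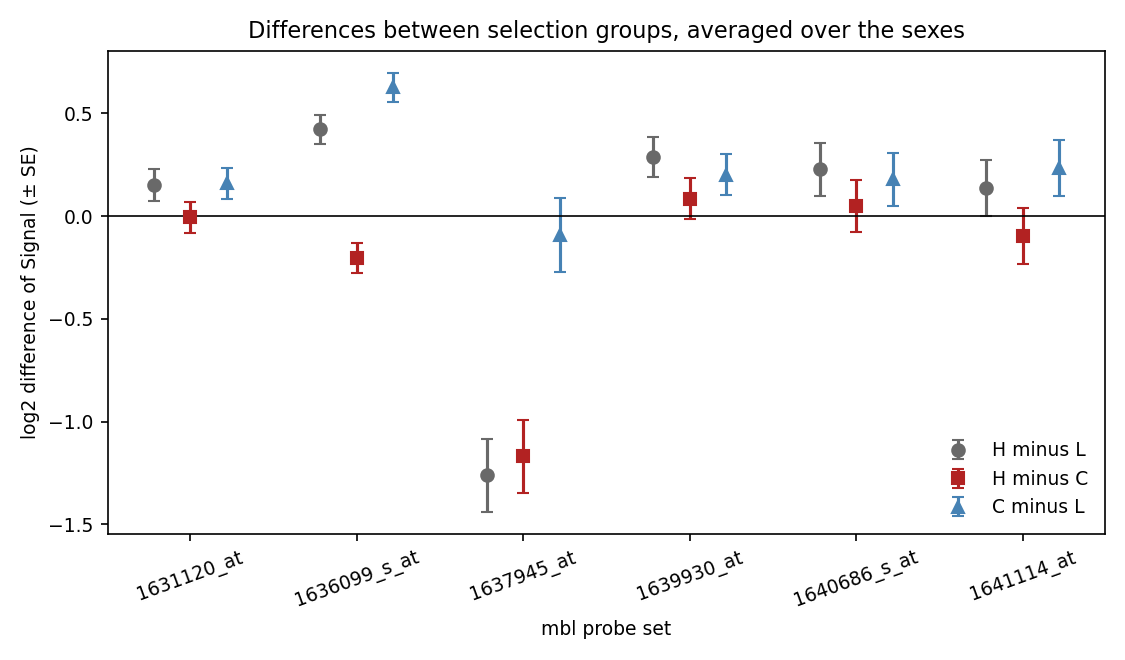
Log2 difference of Signal between selection groups, averaged over the sexes, for each mbl probe set, with bars of ± 1 SE from limma (8 arrays per group). The differences of H minus L and H minus C for 1637945_at are -1.26 and -1.17, those of C minus L and H minus L for 1636099_s_at are 0.63 and 0.42, and the other 4 probe sets lie between -0.10 and 0.29.

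The precision of the 6 probe sets was unequal. The pooled SD of log2 Signal between the 2 arrays of a line and sex was 0.14 for 1636099_s_at, 0.15 for 1631120_at, 0.20 for 1639930_at, 0.27 for 1640686_s_at, 0.28 for 1641114_at and 0.38 for 1637945_at. The most divergent lines were 1.18-fold apart for 1631120_at, 1.33-fold for 1640686_s_at, 1.51-fold for 1641114_at, 1.52-fold for 1639930_at, 1.64-fold for 1636099_s_at and 3.31-fold for 1637945_at. The probe set with the widest line range was thus also the one with the largest spread between replicates, and the number of arrays, 2 per line and sex, limits what smaller differences could be seen.

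The ratio of 1636099_s_at to 1637945_at on the same array does not depend on a scaling factor applied to the array. As a description, the log2 ratio ranged from 1.48 to 3.23 on the High arrays, with a median of 2.17. It was 0.94 to 1.63 on the Control arrays, with a median of 1.20, and 0.11 to 0.77 on the Low arrays, with a median of 0.61. The Low arrays overlapped neither of the other groups, and High and Control arrays overlapped. By line the mean log2 ratio was 1.83 (H1) and 2.63 (H2) for the High, 1.34 (C1) and 1.19 (C2) for the Control, and 0.58 (L1) and 0.51 (L2) for the Low lines. The difference of H and L lines in the ratio was 1.68 (SE 0.19), of which the lower 1637945_at in H lines made the larger part and the lower 1636099_s_at in L lines the rest. It was the largest in size of the 15 pairs of mbl probe sets, followed by -1.55 (SE 0.20) for 1637945_at to 1639930_at and -1.49 (SE 0.23) for 1637945_at to 1640686_s_at.

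**Figure D3:**
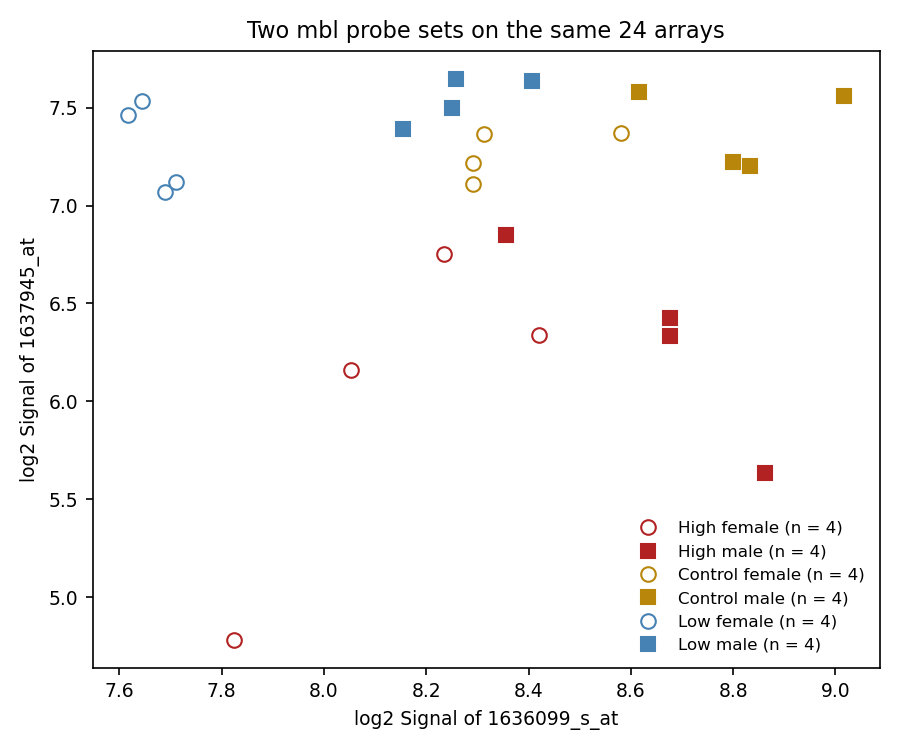
Log2 Signal of 1637945_at against log2 Signal of 1636099_s_at on the 24 arrays, coloured by selection group, with open circles for females and filled squares for males (4 arrays each). High arrays lie below all others on the vertical axis, at a Signal of at most 115.2, and within each sex Low arrays lie to the left of the Control arrays.

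The mbl probe sets ranked the 6 lines in different orders. Over the 6 line means, averaged over the sexes, Pearson's r between 2 mbl probe sets had a median of 0.21 over the 15 pairs, ranged from -0.75 to 0.89 and was positive for 10 pairs. Over all 1099 pairs of probe sets annotated to the same gene, from 532 genes, the median was 0.32 and the interquartile range ran from -0.10 to 0.67. The pair most alike was 1631120_at and 1636099_s_at, with r = 0.89 and Spearman's rho = 0.77. Without the 2 lines farthest from the median of 1631120_at, Low line 1 and High line 1, r was 0.99. This likeness did not hold in both sexes, since r was 0.97 over the line means of females and -0.47 over those of males. The pair most unlike was 1637945_at and 1640686_s_at, with r = -0.75. For 1636099_s_at and 1637945_at r was -0.20. Without the 2 lines farthest from the median of 1636099_s_at, which were both Low lines, r was 0.84. That value therefore covers High and Control lines only. These values are a description of 6 lines that share the same arrays within each pair.

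Males and females were compared next, a contrast that did not enter the choice of the gene. The Signal of 1636099_s_at was 273 ± 63.8 (SD, n = 12) in females, from 196.4 to 382.8, and 388 ± 75.1 (SD, n = 12) in males, from 284.8 to 518.0. The sexes overlapped over all lines, but males were higher in all 6 lines, by a log2 difference of 0.19 in High line 1, 0.83 in High line 2, 0.49 and 0.41 in the Control lines and 0.63 and 0.58 in the Low lines. The mean difference was 0.52 (SE 0.06), or 1.43-fold, with an adjusted p of 7.28e-07 by limma. With the 6 line differences taken as the samples, limma's adjusted p was 0.000937. Of the 6 mbl probe sets 1 was called higher in males, where 25.6% of all probe sets were called higher in males and 69.5% in either direction.

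That direction depends on the scaling. The median difference of males and females over all probe sets tested was -0.19, and 1636099_s_at was 0.71 above it. With array medians centred, the median over all probe sets was -0.72 and that of 1636099_s_at was -0.004 (limma adjusted p = 0.953), which is again 0.71 above the median. With quantile normalization 1636099_s_at differed by 0.54 (limma adjusted p = 5.23e-07).

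The other 5 probe sets were not called between the sexes. Males minus females was 0.12 (SE 0.06) for 1631120_at, with a 95% interval from -0.01 to 0.26, and 0.22 (SE 0.15) for 1637945_at, with an interval from -0.09 to 0.54. For 1639930_at it was 0.15 (SE 0.08, interval -0.02 to 0.32), for 1640686_s_at 0.08 (SE 0.10, interval -0.15 to 0.30) and for 1641114_at 0.15 (SE 0.11, interval -0.09 to 0.38). Their adjusted p by limma were 0.0803 to 0.51. The signs of 1637945_at, 1639930_at, 1640686_s_at and 1641114_at turned negative both with array medians centred and with quantile normalization, and that of 1631120_at with array medians centred. With quantile normalization these 4 differed by -0.17, -0.35, -0.30 and -0.41, in that order. Their limma adjusted p were 0.363, 0.00102, 0.0109 and 0.00206, so that none passed the threshold of 0.001. Males of 1637945_at were higher in all 6 lines, by 0.09 to 0.51, whereas the other 4 had lines on both sides of 0.

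**Figure D4:**
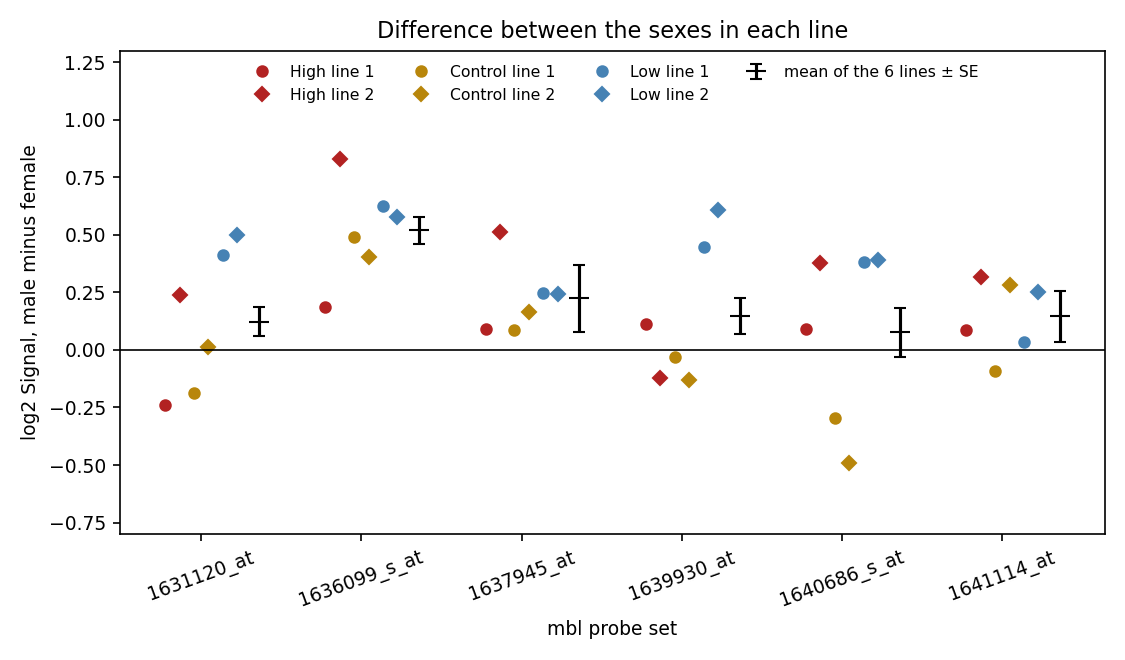
Log2 Signal of males minus females in each of the 6 lines (coloured by group; circles for line 1, diamonds for line 2) for each mbl probe set, with the mean of the 6 lines ± SE from limma in black. For 1636099_s_at all 6 lines lie above 0, between 0.19 and 0.83, a sign that is lost with array medians centred (-0.004), and for 1640686_s_at the Control lines lie below 0, at -0.29 and -0.49.

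The study also kept probe sets for an interaction of line and sex and contrasted the groups within each sex, so that the dependence of the sex difference on line is given as a description. The line by sex interaction was called by limma at an adjusted p under 0.001 for 0 of the 6 probe sets (0.0437% of all probe sets, 5 of 11439), and 1, 1631120_at, had an unadjusted p under 0.05. The difference of H and L lines was 0.46 (SE 0.15) larger in females than in males for 1631120_at and 0.53 (SE 0.20) larger in females for 1639930_at. For the other 4 probe sets it was between -0.06 and 0.15. At an adjusted p under 0.05 limma called 0 of the 6 for this difference between the sexes (0.551% of all probe sets), and 1631120_at and 1639930_at had an unadjusted p under 0.05. Nothing is read from these counts. Within the Low lines males minus females was 0.41 and 0.50 for 1631120_at and 0.45 and 0.61 for 1639930_at, which was not tested for those lines alone.

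Unequal differences between the sexes within the gene were tested on the log2 ratio of each of the 15 pairs. In an exact two-sided sign-flip permutation test over the 6 line differences, the smallest p the design allows is 0.03125. It was reached by 4 of the 15 mbl pairs, those of 1636099_s_at with 1631120_at, 1637945_at, 1640686_s_at and 1641114_at, with the ratio on 1 side in all 6 lines, and by 42.8% of all same-gene pairs. With quantile normalization 9 of the 15 reached it, without the second male array of High line 1 it was 1, and without the second female array of High line 1 it was 2. Adjusted over the 1099 same-gene pairs that p became 0.0731, so that 0 pairs were called. limma on the ratios, an alternative added after seeing that limit, called 4 of the 15 mbl pairs at an adjusted p under 0.05, against 51% of all same-gene pairs.

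In those limma calls 1636099_s_at was higher in males relative to each partner. The log2 ratio of 1631120_at to 1636099_s_at differed by -0.40 (SE 0.08) between males and females, with a limma adjusted p of 0.000757. The log2 ratio of 1636099_s_at to its partner differed by 0.44 (SE 0.13) for 1640686_s_at, 0.37 (SE 0.10) for 1639930_at and 0.37 (SE 0.10) for 1641114_at, with limma adjusted p of 0.00849, 0.00475 and 0.00618. For 1637945_at it was 0.30 (SE 0.15, limma adjusted p = 0.123). The 10 pairs without 1636099_s_at had limma adjusted p of at least 0.553.

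Markers of cell types in which muscleblind is known to act, or whose RNA share can differ between flies, were read beside these values. Of 8 neuron marker genes tested, 6 were called higher in males and 0 higher in females, with a median log2 difference of 0.61 against -0.19 over all probe sets. Among all probe sets 25.6% were called higher in males, a share that also applies to the lists below. The vesicle-fusion gene Snap25 and the active-zone gene brp were higher by 0.64 (SE 0.04) and 1.67 (SE 0.19), and VAChT, the vesicular acetylcholine transporter, by 0.71 (SE 0.07). With array medians centred all differences between the sexes shift by -0.52, which leaves 7 of the 8 neuron markers positive and turns elav negative. The summed Signal of the neuron markers was 3110 to 4291 on High, 4119 to 4573 on Control and 3126 to 3313 on Low female arrays, and 5298 to 5853, 5356 to 6387 and 5016 to 5842 on the male arrays. Between C and L lines 3 of the 8 were called higher in C lines, with a median of 0.30. Among all probe sets 15.5% were called between C and L lines in either direction. Between H and L lines 0 of the 8 were called by limma (15.7% of all probe sets), with 2 at an unadjusted p under 0.05. The called neuron markers and 1636099_s_at had the same sign between the sexes, except with array medians centred, and between C and L lines, and the part of these cells in its differences was not tested. No neuron marker was listed at 0 on an array, and the lowest value was 7.4, for brp.

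Of 8 muscle marker genes 1 was called higher in males and 0 lower, with a median of 0.10. Between H and L lines 0 were called by limma, adjusted or not, where 15.7% of all probe sets were called. The median of that difference was 0.21. The summed Signal of these markers varied widely within groups, from 40538 to 92500 on High and 30489 to 78136 on Low female arrays. Of 4 photoreceptor marker genes tested, 2 were higher in males, and both turned negative with array medians centred. They were trp, a channel of phototransduction, by 0.37 (SE 0.05) and inaD, a scaffold of the phototransduction complex, by 0.40 (SE 0.07). Between H and L lines 1 of the 4 was called (15.7% of all probe sets), with 3 at an unadjusted p under 0.05. The 1 called was trp, which was lower in H lines by -0.41 (SE 0.06). The other 3 had positive differences, 0.13 for Arr1, 0.12 for Arr2 and 0.22 for inaD, and the median was 0.13. The part of these cells in the low Signal of 1637945_at in H lines was not tested. Defining markers such as ninaE, Mhc and wupA are not analysed here.

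Of 22 other RNA-binding and splicing regulators tested, 14 were called higher in females and 3 higher in males, with a median log2 difference of -0.67 between males and females against -0.19 over all probe sets. Of all 11439 probe sets tested, 5020 were called higher in females and 2931 higher in males. The 3 higher in males were Syp, a Syncrip ortholog, by 0.82 (SE 0.05), and the ELAV-family genes fne and Rbp9, known from neurons, by 0.62 (SE 0.08) and 0.48 (SE 0.08). The general splicing factor SF2 and the hnRNP genes Hrb87F and Hrb98DE were lower in males by -1.33 (SE 0.04), -1.29 (SE 0.04) and -1.29 (SE 0.05). With array medians centred Syp and fne stayed positive, at 0.30 and 0.10, and Rbp9 turned negative, at -0.04. Between H and L lines 2 of the 22 were called (15.7% of all probe sets), and 4 had an unadjusted p under 0.05. The median over the list was -0.02. Both called genes were higher in H lines, and both were named after their values were seen. They were ps (pasilla), an ortholog of the NOVA splicing factors, at 0.51 (SE 0.08), and Syp at 0.21 (SE 0.07).

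Genes of the sarcomere and of muscle attachment, among them genes with splicing that depends or may depend on muscleblind, were read as another list. Of 16 tested, 2 were called higher in males, the alpha-PS2 integrin gene if by 0.51 (SE 0.06) and sls, which encodes the titin-like sallimus, by 0.42 (SE 0.07), and 0 were called lower. Both turned negative with array medians centred, at -0.01 and -0.11. Between H and L lines 0 of the 16 were called by limma (15.7% of all probe sets), with 1 at an unadjusted p under 0.05 and a median of 0.16. The genes if and sls, 2 of the 16, were called lower in H than C lines and higher in C than L lines. The shares of all probe sets called there in either direction are the 11.2% and 15.5% given above. A probe set reports the amount of RNA that its probes bind, and splicing of these genes was not measured.

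Genes whose pattern over lines was most like that of a member were found by Pearson's r over the 12 means of line and sex, after the mean of each sex was subtracted, among 10175 probe sets with 1 gene symbol. These r are the highest of many and describe the same arrays. For 1637945_at they were Arpc1, a subunit of the actin-nucleating Arp2/3 complex (r = 0.99), Sarm (r = 0.97) and CG12224 (r = 0.95). Their H and L lines differed by -0.92 (SE 0.05), -0.95 (SE 0.11) and -1.67 (SE 0.39). For 1636099_s_at they were CG33203 (r = 0.97), CG32052 (r = 0.93) and Amph, which encodes the membrane-shaping protein amphiphysin of muscle tubules (r = 0.93), with H and L lines apart by 0.45 (SE 0.13), 0.53 (SE 0.10) and 0.38 (SE 0.05). The closest mbl probe set was at r = 0.06 for 1637945_at and at r = 0.63 for 1636099_s_at.

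For 1631120_at the most alike were nrv3, a beta subunit of the sodium pump (r = 0.96), myd (r = 0.93) and lectin-30A (r = 0.93). For 1639930_at they were phyl, which acts in photoreceptor fate (r = 0.91), MnM (r = 0.89) and frm (r = 0.88). For 1640686_s_at they were CG30195 (r = 0.88), mesh, a septate junction protein of the gut (r = 0.88), and CG13409 (r = 0.87). For 1641114_at they were Glys, glycogen synthase (r = 0.93), CG14022 (r = 0.93) and RanBPM (r = 0.92). No gene was named for more than 1 mbl probe set.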

How the data were processed

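RNA of 24 whole-fly samples was hybridized, 1 sample per array, to the Affymetrix Drosophila GeneChip 2.0. The authors deposited the linear Signal intensity of MAS5, a weighted difference of matching and mismatched probes that had been scaled per array. No array column was left unused. The probes' build is not named in the sources used here, names come from the platform annotation, and no coordinates or sequences are printed. log2(Signal) was not scaled again, and a probe set was tested where its Signal had a median of 75 or more. limma (3.58.1, R 4.3.3) estimated 12 means, 1 for each line in each sex, leaving 12 residual degrees of freedom, and p-values were adjusted by Benjamini-Hochberg over all 11439 probe sets. Sex, line and interaction were called at an adjusted p under 0.001, as in the methods, and contrasts of groups at 0.05. p-values measure the spread between samples of the same lines, and the SE of a group difference leaves out the spread between its lines. The scripts were tested on simulated data. Python 3.11.15, pandas 2.3.3 and SciPy 1.17.1 were used.

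The genes named are all mbl probe sets, the 3 probe sets most like each, and up to 3 genes per list and direction with the smallest p between the sexes. A list gene was read by 1 probe set, and 22 of 30 RNA-binding, 16 of 20 muscle, 8 of 10 neuron, 4 of 10 photoreceptor and 8 of 10 muscle marker names matched. The gene, the lists and the tests were chosen with earlier results of these data known. The interaction of line and sex was planned as a test and is given as a description, because the study's filter used it. Alternatives were other scalings, log2(Signal + 50), linear Signal, a minimum of 50 or 150 or none, the replicate block, line as a random block, other thresholds, and leaving out each array and each line.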

Additional observations from a re-analysis of the deposited data

Results flagged for a closer look

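On the 4 Control female arrays of 1636099_s_at, the array of line 1, replicate 2 had a Signal of 383 and the other 3 had 313.1, 318.0 and 313.3. Its gap to the nearest array was 0.923 of the whole range, above Dixon's critical value of 0.829 for 4 samples. This was 1 of 36 groups of 4 arrays tested over the 6 mbl probe sets, and chance alone marks about 1 in 20.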

How the results depend on the processing

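The number of mbl probe sets with a sex difference was 1 in 39 of 40 alternatives and 3 with array medians centred. There the difference of males and females was -0.40 for 1631120_at, -0.38 for 1639930_at and -0.45 for 1640686_s_at, all called lower in males, and -0.00396 for 1636099_s_at, not called. The counts for the line by sex interaction and for the difference of H and L lines between the sexes were 0 in all 38 alternatives each. The count for the line effect, 2, was 0 with array medians centred, with linear Signal and with no filter. It was 1 with quantile normalization, with a minimum of 50 or of 150, and with the replicate block. It ranged from 0 to 2 without 1 array. It was 1 without High line 1 or High line 2, and 0 without either Control line or either Low line. The count of probe sets called between the groups, 2, was 1 with a minimum of 150, which removes 1637945_at, 2 with line as a random block, and 2 to 3 without 1 array. The number of pairs with unequal sex differences, 0, was 4 by limma on the ratio and 4 in an ordinary linear model with the replicate block. Pairs without a line were not run, because 5 lines allow no exact p under 0.0625 in the sign-flip test. Likeness without a line was not run either, so that its dependence on single lines was not tested. No likeness was called in 33 alternatives, and without alternatives 1 pair had an unadjusted p under 0.05. Of all 1099 same-gene pairs, 0 had an adjusted p under 0.05 by Pearson's r or by Spearman's rho, also without alternatives. The likeness test thus called no pair of any gene there, and nothing is read from its count for mbl. For 1637945_at the difference of H and C lines was -0.76 with log2(Signal + 50), -1.60 without High line 1 and -0.74 without High line 2. For 1639930_at it was -0.19 without Control line 1 and 0.36 without Control line 2. The cause of these shifts was not tested.

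The replicate numbers did not pair the samples. Same-numbered arrays of 2 line and sex groups deviated together with correlations from -0.26 to 0.26 over 66 pairs of groups, and the replicate block left the count for the sex difference at 1.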
